A study of Mus musculus with 9 samples.

Results

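A set of 10 genes of the Z-disc and of the response of muscle to mechanical stress was followed across the 3 groups of tibialis anterior (TA) muscle: *Xirp1*, *Xirp2*, *Flnc*, *Mustn1*, *Csrp3*, *Ankrd1*, *Ankrd2*, *Myoz2*, *Ldb3*, and *Nrap*. They were chosen by name, with earlier results of these arrays known, and each of the 10 has 1 row among the 22206 gene rows of the arrays. TA is a mostly fast muscle of the shin. Total RNA of TA at P28 came from 9 mice, 3 in each group, and each mouse has its own Clariom S array, on which a gene has 1 log2 signal. The Δ1w and Δ2w mice carried *Pax7*creER with *Mymk* alleles that the labels give as 8c fl/fl or 8c LacZ/fl, and received tamoxifen at P0 (Δ1w) or P6 (Δ2w). The Cre is driven by *Pax7*, so that *Mymk*, the gene for the fusion protein Myomaker, is deleted in satellite cells and not in the nuclei that muscle fibers already hold. Control mice lacked *Pax7*creER, carried 8c fl/fl or 8c LacZ/fl, and are listed without tamoxifen, whereas the methods describe tamoxifen for control mice too. The labels give average myonuclear numbers of 233 for control, 100 for Δ2w, and 55 for Δ1w mice. A LacZ allele of *Mymk* was recorded in 6 of the 9 mice (control replicates 1 and 6, Δ1w replicate 5, and Δ2w replicates 2, 3, and 4), and the mTmG reporter in 8, all but Δ1w replicate 8. In the sample names, control replicates 1 and 6 and the 3 Δ2w mice share 1 prefix, Δ1w replicates 5 and 8 share another, and control replicate 2 and Δ1w replicate 1 each have their own.

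The Z-disc anchors the actin filaments of neighbouring sarcomeres, and the proteins at its edge tie it to titin and to the cell membrane. Several of them move between the sarcomere, the membrane, and the nucleus when load changes, and their transcripts are known to rise when muscle is stretched, damaged, or overloaded. Among the 10 genes, *Xirp1* and *Xirp2* encode the Xin proteins, which bind actin, and *Flnc* encodes filamin C, an actin cross-linker that binds Xin. *Ankrd1* and *Ankrd2* encode ankyrin repeat proteins that bind titin, and *Csrp3* encodes muscle LIM protein. *Myoz2* encodes calsarcin-1, which holds calcineurin at the Z-disc, *Ldb3* encodes the PDZ and LIM protein Cypher, and *Nrap* encodes a nebulin-related protein of myofibril assembly and of the myotendinous junction. *Mustn1* encodes a small nuclear protein of muscle and skeleton.

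*Mymk* itself was lower in every mouse with the deletion. Its log2 signal was 11.82, 12.03, and 11.61 in control replicates 1, 2, and 6, then 8.99, 7.49, and 7.94 in Δ1w replicates 1, 5, and 8, and 8.39, 7.67, and 6.70 in Δ2w replicates 2, 3, and 4. It is not known here whether its probes lie in the deleted part. Markers of skeletal muscle fibers averaged 19.27 to 19.40 on every array, near the highest signal of 19.93, and markers of cardiac muscle, which shares several of the 10 genes, averaged 5.04 to 5.38, below the medians of 5.77 to 6.25 of the negative control probes. Array medians over all gene rows ran from 6.37 to 6.44.

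The promoters of *Flnc*, *Mustn1*, and *Myoz2*, 3 of the 4 genes called in Δ1w muscle, and of *Ankrd1* are shown here, so that each can be read beside its signals. RefSeq promoters of GRCm38.p6 were found for 9 of the 10 genes, with none for *Xirp1*. The 250 bases before the start site were searched on both strands for MCAT (CATTCC, the TEAD motif), E-box (CANNTG), AP-1 (TGANTCA), CArG box (the SRF motif), and MEF2 site. *Ankrd1* (chromosome 19, minus strand, chr19:36119845-36120094) has 2 MCAT matches, *Myoz2* (chromosome 3, minus strand, chr3:123034988-123035237) has 1 MEF2 match, and *Mustn1* (chromosome 14, plus strand, chr14:30879007-30879256) and *Flnc* (chromosome 6, plus strand, chr6:29432903-29433152) have no match to any of the 5. Capitals mark the MCAT and MEF2 matches, and E-boxes are left in lower case.
Ankrd1: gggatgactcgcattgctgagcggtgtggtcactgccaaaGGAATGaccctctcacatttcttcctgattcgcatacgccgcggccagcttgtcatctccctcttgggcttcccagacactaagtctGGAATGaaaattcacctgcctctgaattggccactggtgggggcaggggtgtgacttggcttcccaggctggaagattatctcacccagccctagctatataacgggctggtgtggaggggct
Mustn1: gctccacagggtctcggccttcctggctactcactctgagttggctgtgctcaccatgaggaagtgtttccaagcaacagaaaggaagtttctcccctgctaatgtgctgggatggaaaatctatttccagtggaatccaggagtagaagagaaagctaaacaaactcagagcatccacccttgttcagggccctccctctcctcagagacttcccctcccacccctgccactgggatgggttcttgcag
Flnc: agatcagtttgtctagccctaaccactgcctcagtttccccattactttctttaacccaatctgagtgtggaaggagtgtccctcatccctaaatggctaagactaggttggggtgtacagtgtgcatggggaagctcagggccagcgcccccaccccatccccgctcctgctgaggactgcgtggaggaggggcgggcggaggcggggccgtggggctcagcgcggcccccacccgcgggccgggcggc
Myoz2: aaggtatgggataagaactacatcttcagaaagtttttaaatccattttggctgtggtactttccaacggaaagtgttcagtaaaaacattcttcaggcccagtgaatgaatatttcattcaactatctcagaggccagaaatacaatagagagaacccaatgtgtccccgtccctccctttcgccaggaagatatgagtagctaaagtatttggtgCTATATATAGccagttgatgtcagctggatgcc
The MCAT matches of *Ankrd1* start at −210 and −123 from its start site and lie on the minus strand of the sequence as shown, where they read as the reverse complement. A second start site of *Flnc*, inside the gene, has 1 MCAT match at −104. The *Ldb3* promoter holds a CArG box and an AP-1 match, and that of *Xirp2* an AP-1 match and a MEF2 site. The 9 genes have 12 such windows, overlapping in *Flnc* and *Ldb3*. MCAT was in 2 of the 12 windows, against 12.64% of 32851 promoters of the same length, E-box in 7 (66.22%), AP-1 in 3 (6.75%), MEF2 in 2 (2.92%), and CArG in 2 (1.47%). Both CArG windows and 2 of the 3 AP-1 windows are the overlapping windows of *Ldb3*, which hold the same sites. A match of letters is not a binding site, and no binding was measured.

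In Δ1w muscle all 10 genes had a higher mean than in control muscle, with a median log2 change of 1.39, and the median over all gene rows was −0.0023. *Xirp1*, *Flnc*, *Mustn1*, and *Myoz2* rose (limma adjusted p under 0.05), 0 fell, and 6 did not pass. Of all rows, 0.905% were called higher in this comparison. At an unadjusted p under 0.05, 8 of the 10 were higher, as were 7.2% of all rows. The 3 Δ1w arrays lay above the 3 control arrays for 9 of the 10 genes, all but *Xirp2*, which is true of 8.53% of all rows. In Δ2w muscle all 10 means were again above control, with a smaller median of 0.72 (all rows −0.0044). *Mustn1* alone rose, where 0.036% of all rows were called higher, and 8 of the 10 were higher at an unadjusted p under 0.05, against 3.98% of all rows. The arrays did not overlap for 8 genes, all but *Csrp3* and *Ankrd1*, against 7.52% of all rows. Both comparisons use the same 3 control mice. Genes were chosen with earlier results of these arrays known, and the counts describe them only.

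**Figure D1:**
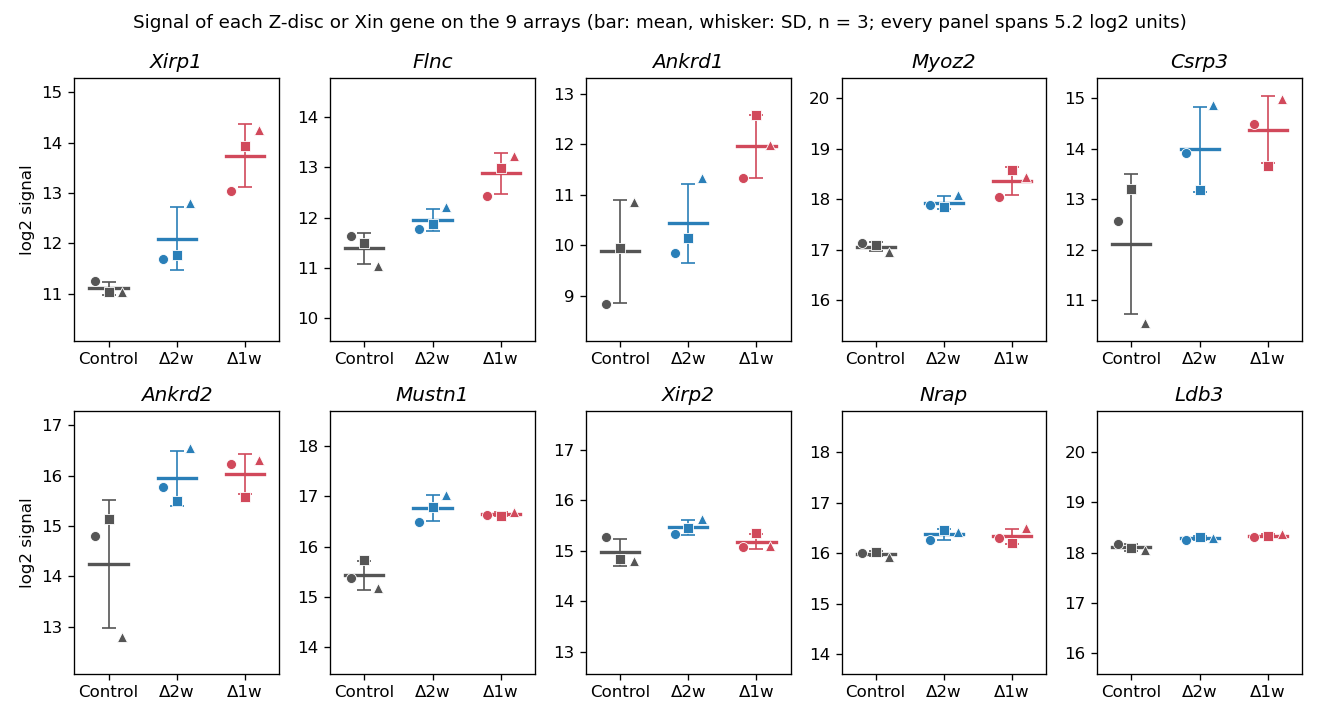
Log2 signal of each gene on each array (circle, square, and triangle: the 3 mice of a group in the order of their replicate numbers), with the group mean (bar) and SD (whisker), n = 3. The *Xirp1* and *Flnc* panels show every Δ1w mouse above every Δ2w mouse, and so does *Ankrd1*, but there by a very small margin. *Mustn1* is about as high in both models, and *Ldb3* is nearly flat on the common span of the panels.

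The Xin protein gene *Xirp1* had the largest change of the 10 in Δ1w muscle. Its log2 signal was 11.24, 11.03, and 11.04 in control, 13.04, 13.93, and 14.24 in Δ1w, and 11.70, 11.78, and 12.81 in Δ2w muscle, with replicates in the order given above for *Mymk*. The control mice lay close together, and the 3 groups did not overlap, with Δ2w between control and Δ1w. It rose by 2.63 in Δ1w muscle, or 6.20-fold (standard error 0.33, limma adjusted p = 0.00356), and was 0.99 higher in Δ2w muscle without passing (adjusted p = 0.559). In Δ2w muscle 1 mouse, replicate 4, stood 1.70 above the control mean, while replicates 2 and 3 stood 0.59 and 0.67 above it.

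*Xirp2*, the other Xin gene, did not follow *Xirp1*. Its signal was 15.27, 14.84, and 14.79 in control, 15.08, 15.36, and 15.11 in Δ1w, and 15.34, 15.44, and 15.63 in Δ2w muscle. The Δ1w mice overlapped with control, and the Δ2w mice lay just above it. Neither the change of 0.21 in Δ1w muscle (adjusted p = 0.664) nor that of 0.50 in Δ2w muscle (adjusted p = 0.585) passed.

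Filamin C, the actin cross-linker that binds Xin, went with *Xirp1*. *Flnc* was at 11.63, 11.48, and 11.04 in control, 12.43, 12.98, and 13.22 in Δ1w, and 11.78, 11.87, and 12.20 in Δ2w muscle. As for *Xirp1*, the groups did not overlap, and replicate 8 of Δ1w and replicate 4 of Δ2w were highest in their groups. *Flnc* rose by 1.49 in Δ1w muscle, or 2.81-fold (standard error 0.24, adjusted p = 0.0108), and was 0.56 higher in Δ2w muscle (adjusted p = 0.636). Without Δ1w replicate 5, the adjusted p in Δ1w muscle was 0.0545.

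The titin-binding ankyrin repeat genes were spread more widely among control mice. *Ankrd1* was at 8.83, 9.95, and 10.86 in control, 11.33, 12.58, and 11.98 in Δ1w, and 9.84, 10.14, and 11.32 in Δ2w muscle. All Δ1w mice were above all control and Δ2w mice, and Δ2w overlapped with control. Δ1w replicate 1 was only just above Δ2w replicate 4 (11.330 and 11.325). The change of 2.08 in Δ1w muscle missed the threshold (standard error 0.50, adjusted p = 0.0683), and that in Δ2w muscle was 0.56 (adjusted p = 0.839). Without control replicate 6 or without Δ1w replicate 1, *Ankrd1* passed in Δ1w muscle (2.57, adjusted p = 0.043, and 2.40, adjusted p = 0.0404). It also passed among rows with a mean signal of at least 6 (adjusted p = 0.0468) and with Y-linked genes as a covariate (2.11, adjusted p = 0.0314), and in none of the other 17 of 21 alternatives that give an adjusted p.

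*Ankrd2* was at 14.80, 15.15, and 12.79 in control, 16.22, 15.58, and 16.31 in Δ1w, and 15.78, 15.50, and 16.56 in Δ2w muscle. Control replicate 6 was far under the other control mice, and each mouse of both models was above all controls. Its means were 1.79 higher in Δ1w muscle (standard error 0.50, adjusted p = 0.117) and 1.70 higher in Δ2w muscle (adjusted p = 0.499), and neither passed. *Csrp3*, muscle LIM protein, had a similar pattern, at 12.56, 13.21, and 10.54 in control, 14.49, 13.67, and 14.99 in Δ1w, and 13.92, 13.18, and 14.86 in Δ2w muscle. It was 2.28 higher in Δ1w muscle (standard error 0.61, adjusted p = 0.0986) and, with 1 overlap, 1.89 higher in Δ2w muscle (adjusted p = 0.546), where Δ2w replicate 3 was just under control replicate 2. Without control replicate 6 the changes of *Csrp3* were 1.50 and 1.10, and those of *Ankrd2* 1.07 and 0.98.

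*Myoz2*, the calcineurin-binding calsarcin-1, changed with little spread. Its signal was 17.14, 17.09, and 16.96 in control, 18.05, 18.59, and 18.44 in Δ1w, and 17.88, 17.84, and 18.09 in Δ2w muscle. Each mouse of either model was above each control mouse, and the models overlapped at Δ2w replicate 4 and Δ1w replicate 1. *Myoz2* rose by 1.29 in Δ1w muscle, or 2.45-fold (standard error 0.18, adjusted p = 0.00515), and was 0.87 higher in Δ2w muscle (adjusted p = 0.166).

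*Mustn1*, the small nuclear protein, was the gene that passed in both models. It was at 15.37, 15.74, and 15.17 in control, 16.63, 16.61, and 16.69 in Δ1w, and 16.49, 16.78, and 17.01 in Δ2w muscle. The Δ1w mice lay close together and inside the range of the Δ2w mice, and both models were above control. *Mustn1* rose by 1.22 in Δ1w, or 2.32-fold (standard error 0.19, adjusted p = 0.0115), and by 1.34 in Δ2w muscle, or 2.53-fold (standard error 0.19, adjusted p = 0.0417). The call in Δ2w muscle was lost on leaving out any 1 of the arrays other than Δ1w replicate 1 (adjusted p 0.0617 to 0.204), with changes of 1.21 to 1.49. Among the control and Δ2w mice of the shared name prefix the change was 1.49 (adjusted p = 0.124), and with the prefix as a random block all 4 calls in Δ1w muscle and that of *Mustn1* in Δ2w muscle (1.36, adjusted p = 0.0345) were made. No Δ1w mouse shares a prefix with a control, so for Δ1w muscle this block cannot separate prefix from group. With the LacZ allele as a covariate the adjusted p of *Mustn1* in Δ2w muscle was 0.0539.

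The structural genes *Ldb3* and *Nrap* differed by fractions of a log2 unit. *Nrap*, of myofibril assembly, was at 16.004, 16.03, and 15.93 in control, 16.30, 16.21, and 16.49 in Δ1w, and 16.26, 16.45, and 16.42 in Δ2w muscle, a change of 0.35 (adjusted p = 0.351) and 0.39 (adjusted p = 0.624). *Ldb3*, the Cypher gene, was at 18.17, 18.09, and 18.05 in control, 18.30, 18.33, and 18.36 in Δ1w, and 18.24, 18.31, and 18.29 in Δ2w muscle, a change of 0.23 (adjusted p = 0.536) and 0.18 (adjusted p = 0.821). In both genes all mice of both models were above all controls, and no change passed.

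**Figure D2:**
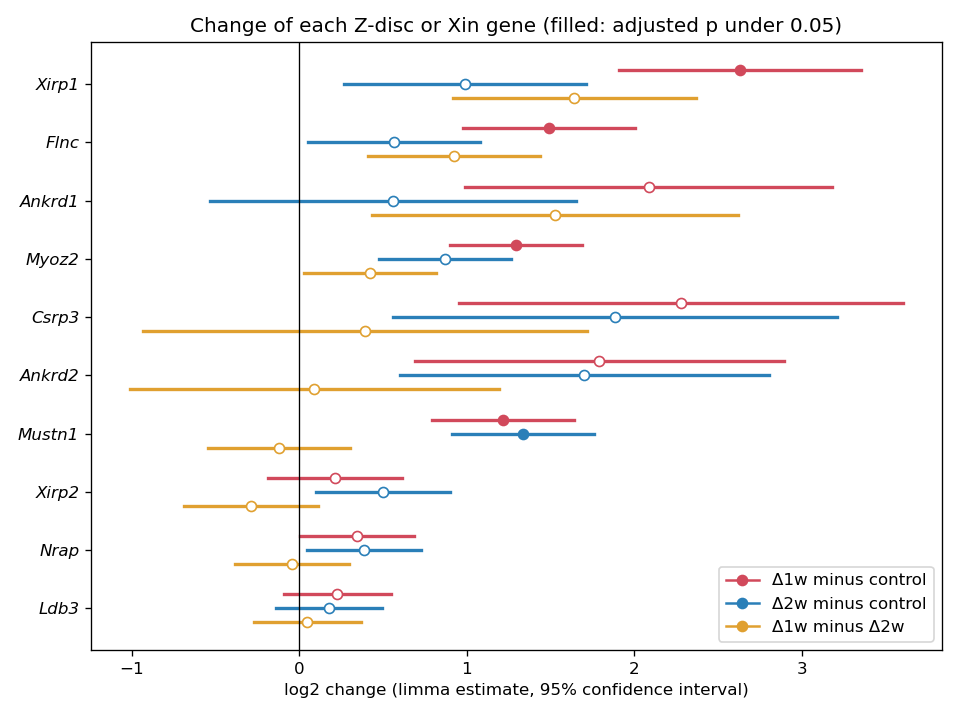
Log2 change of each gene with its 95% confidence interval from limma, for Δ1w and Δ2w muscle against control and for Δ1w against Δ2w muscle (filled: adjusted p under 0.05). The interval of Δ1w minus Δ2w lies above 0 for *Xirp1*, *Flnc*, *Ankrd1*, and *Myoz2*, and spans 0 for the other 6. Intervals are not adjusted for the number of rows, and no gene passed in that comparison.

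Δ1w and Δ2w muscle were then set against each other directly. No Δ1w mouse shares a name prefix with a Δ2w mouse, so prefix and model cannot be told apart here. The LacZ allele was recorded in every Δ2w mouse but in only 1 Δ1w mouse. None of the 10 passed an adjusted p of 0.05 (limma), and 0.0045% of all rows were called higher. At an unadjusted p under 0.05, 4 were higher in Δ1w muscle, against 4.3% of all rows. All Δ1w arrays were above all Δ2w arrays for 3 genes, *Xirp1*, *Flnc*, and *Ankrd1*, against 7.2% of all rows. For *Ankrd1* this was close to a tie, at 11.330 in Δ1w replicate 1 and 11.325 in Δ2w replicate 4. *Xirp1* was 1.64 higher in Δ1w than in Δ2w muscle (95% interval 0.92 to 2.37, adjusted p = 0.214), *Ankrd1* 1.53 higher (0.43 to 2.62, adjusted p = 0.455), and *Flnc* 0.93 higher (0.41 to 1.44, adjusted p = 0.329). These are the actin-binding Xin and filamin pair and 1 of the titin-binding proteins. Without Δ1w replicate 1, *Xirp1* passed (1.99, adjusted p = 0.0353). *Myoz2* was 0.42 higher (0.03 to 0.82, adjusted p = 0.570), with 1 overlap between mice.

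No gene of the set passed in this comparison. For the remaining 6 genes the 95% interval spanned 0, and none of these intervals is adjusted for the number of rows. *Mustn1* differed by −0.12 (95% interval −0.55 to 0.30), *Nrap* by −0.04 (−0.38 to 0.30), *Ldb3* by 0.05 (−0.27 to 0.37), and *Xirp2* by −0.29 (−0.69 to 0.11). Those of *Ankrd2* (0.09, −1.01 to 1.19) and *Csrp3* (0.39, −0.93 to 1.72) allow differences of over 2-fold in Δ1w muscle. Ordered by group means, 7 genes ran control, Δ2w, Δ1w, and 3 ran control, Δ1w, Δ2w (*Xirp2*, *Mustn1*, and *Nrap*). Neighbouring groups in that order did not overlap at either step for *Xirp1* and *Flnc*. The share of all rows that separate at both steps was not counted, so this is a description only.

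**Figure D3:**
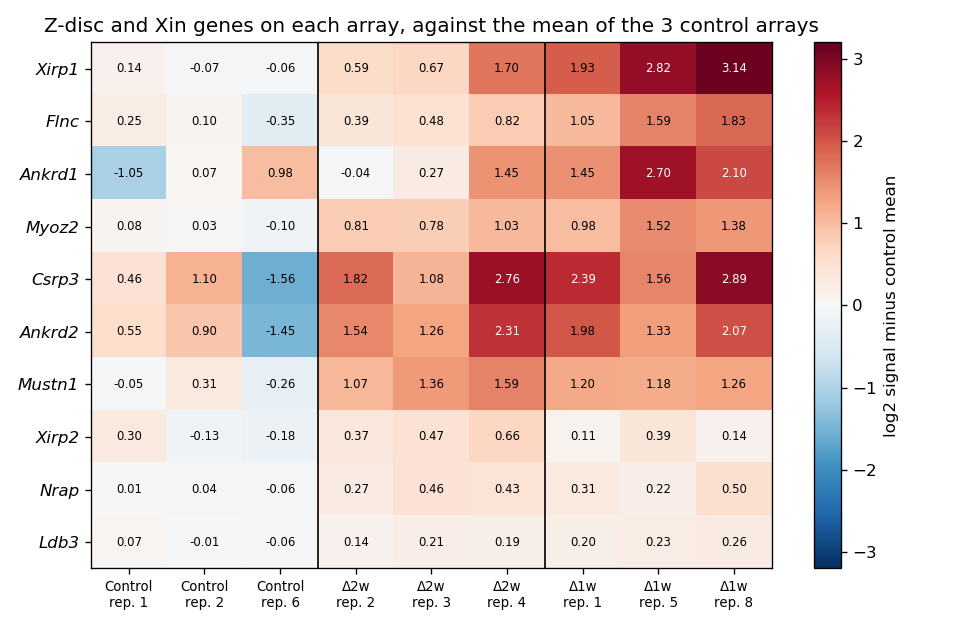
Log2 signal of each gene (rows) on each array (columns) minus the mean of the 3 control arrays, with the value in each cell. Control replicate 6 is at −1.56 and −1.45 for *Csrp3* and *Ankrd2*, Δ2w replicate 4 is highest of its group for 8 of the 10 genes, and Δ1w replicate 8 of its group for 7.

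Mice of a group differed in the same direction for many of the genes. Control replicate 6 was the lowest of all 9 arrays for 8 genes, but *Ankrd1* was 0.98 above the control mean on the same array. The median difference from the control mean over the 10 genes was 1.12, 1.43, and 1.60 in Δ1w replicates 1, 5, and 8, and 0.49, 0.58, and 1.24 in Δ2w replicates 2, 3, and 4. Of the 45 pairs of genes, Pearson correlations over the 9 arrays ran from 0.07 to 0.99 with a median of 0.75, and those of deviations from group means from −0.38 to 0.98 with a median of 0.44. *Csrp3* and *Ankrd2* gave 0.99 and 0.98 by these measures, and *Xirp1* and *Flnc* 0.98 and 0.84. *Ankrd1* and *Ankrd2*, which encode related proteins, gave 0.31 and −0.38. The points share 3 groups and 1 normalization, and the values are descriptions.

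Among 10895 other named rows with a mean signal of at least 6, those most like *Xirp1* over the 9 arrays were *Flnc* (Pearson 0.977), the protocadherin gene *Pcdh7* (0.973), and *Rgcc* (0.973). Those most like *Flnc* were *Ppp1r9b* (0.981), *Pcdh7* (0.980), and the small heat shock gene *Hspb1* (0.977). *Mustn1* was followed most closely by *Slc22a4* (0.952), *Dusp22* (0.946), and *Fam20b* (0.940), and *Ankrd1* by *Rras* (0.963), *C1rb* (0.955), and *Il10ra* (0.943). *Rgcc* rose by 2.71 in Δ1w muscle and *Hspb1* by 2.21 (limma adjusted p = 0.000237 and 0.0083), with 0.73 and 0.63 in Δ2w muscle. *Fam20b* and *Pcdh7* also passed in Δ1w muscle (1.15 and 0.92, limma adjusted p = 0.0126 and 0.0431). *Slc22a4*, *Dusp22*, *Ppp1r9b*, *Rras*, *C1rb*, and *Il10ra* did not pass. The rows were picked by likeness over these same arrays, so their changes follow in part from that choice and are descriptions.

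Relatives of these proteins and other proteins of the Z-disc gave 1 call. Of 10 measured family relatives, 0 rose, 1 fell, and 9 did not pass in Δ1w muscle, with a median of 0.28. The 1 that fell was *Myoz3*, a calsarcin of fast fibers, by 1.28 on the log2 scale (adjusted p = 0.00356), opposite to *Myoz2*. *Pdlim3*, the LIM protein ALP, was at 0.85 (adjusted p = 0.0553) and *Csrp1*, a relative of *Csrp3*, at 0.83 (adjusted p = 0.102). At an unadjusted p under 0.05 in limma, 3 relatives were higher and 2 lower in Δ1w muscle, against 14% of all rows in either direction. The lower ones were *Myoz3* and *Ankrd23*, a relative of *Ankrd1* and *Ankrd2*. *Ankrd23* was at −0.44 (adjusted p = 0.261), with every Δ1w mouse below every control mouse. None of the relatives passed in Δ2w muscle (median 0.22), with 4 at an unadjusted p under 0.05 in limma, 3 of them higher. Of 19 other Z-disc genes 0 passed in either model, with medians of 0.09 and 0.08 and 3 at an unadjusted p under 0.05 in each, in either direction, where 14% and 7.47% of all rows are in Δ1w and Δ2w muscle. The smallest p in Δ1w muscle belonged to *Smpx*, a small muscle protein of the costamere (0.64, adjusted p = 0.0607), *Actn3*, the α-actinin of fast fibers (−0.37, adjusted p = 0.298), and *Synpo2l* (−0.39, adjusted p = 0.332).

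Genes of the SRF, YAP, and focal adhesion response to load lay on both sides of 0, from −0.59 to 0.96 in Δ1w and −0.58 to 1.02 in Δ2w muscle. Of 16, 0 passed in either model (medians −0.04 and −0.06), with 3 at an unadjusted p under 0.05 in each. The SRF coactivator gene *Mrtfb* was at −0.59 (adjusted p = 0.193), *Ccn1*, a secreted target of YAP and the highest of them in both models, at 0.96 (adjusted p = 0.216), and *Tln1*, talin, at 0.44 (adjusted p = 0.249) in Δ1w muscle. *Ankrd1*, itself a known target of YAP, is counted with the 10 genes and not here.

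**Figure D4:**
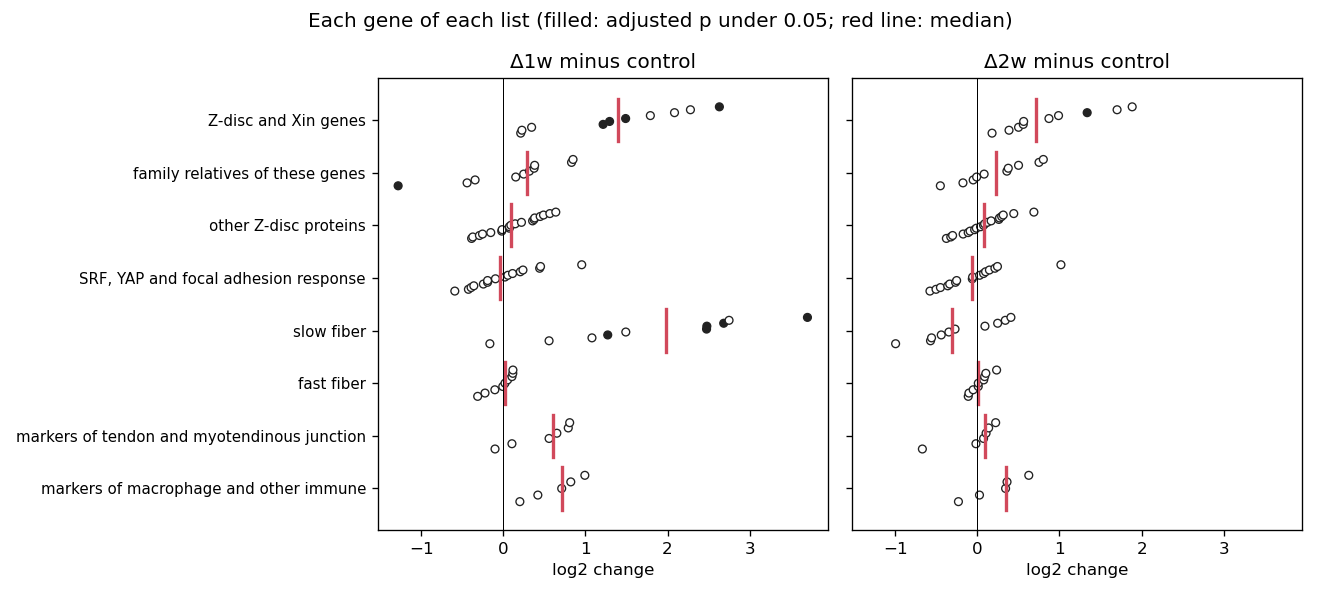
Log2 change of every gene of each list in Δ1w (left) and Δ2w muscle (right) against control, on 1 common axis (filled: adjusted p under 0.05 in limma, red line: median). The 10 genes of the Z-disc and Xin list lie right of 0 in both panels, other Z-disc genes surround 0, and slow fiber genes are at a median of 1.98 in Δ1w and −0.31 in Δ2w muscle. The 10 genes and the lists were chosen with earlier results of these arrays known, so the contrast between lists is a description.

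Slow fiber genes moved beside the 10 genes in 1 model. *Myoz2*, *Csrp3*, and *Ankrd2* are known to be more abundant in slow than in fast fibers. Of 10 slow fiber genes 5 rose in Δ1w muscle and 5 did not pass (median 1.98), among them *Sln*, sarcolipin (3.70, adjusted p = 0.00367), *Myl2*, the slow regulatory light chain (2.48, adjusted p = 0.00367), and *Tnni1*, slow troponin I (2.68, adjusted p = 0.0158). In Δ2w muscle 0 passed, with 1 at an unadjusted p under 0.05 in limma, and the median was −0.31. The mean of the list was 10.95 to 11.53 on control arrays, 12.46 to 13.45 in Δ1w, and 10.66 to 11.62 in Δ2w muscle, so that Δ2w mice overlapped with control, while the mean of the 10 Z-disc and Xin genes was 13.72 to 14.26, 15.19 to 15.58, and 14.72 to 15.32 without overlap with control. Control replicate 6, with the lowest *Csrp3* and *Ankrd2*, also had the lowest slow fiber mean of the controls, and Δ2w replicate 4, with the highest of both in its group, had the lowest of all 9 arrays. Both lists were chosen with earlier results of these arrays known, and their means are descriptions. The part of fiber type in the Δ1w changes was not tested. In bulk muscle, a different number of cells of a type and a different amount of RNA per cell cannot be told apart.

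Fast fiber genes (9) and genes of developing or regenerating fibers (7) had 0 calls in both models by limma, with 0 and 0 of the fast and 2 and 1 of the developing genes at an unadjusted p under 0.05 in Δ1w and Δ2w muscle. The group means of fast fiber genes were 18.23 or above, near the ceiling, and those of lowest p in Δ1w muscle were *Pvalb*, parvalbumin (−0.22, adjusted p = 0.566), *Myh2* (−0.31, adjusted p = 0.693), and *Tnnt3* (0.12, adjusted p = 0.797). Of the developing fiber genes *Myh3*, embryonic myosin, was at 1.61 in Δ1w muscle (adjusted p = 0.0715), *Myog*, myogenin, at −0.93 (adjusted p = 0.192), and *Chrng*, the embryonic acetylcholine receptor subunit, at −0.38 (adjusted p = 0.461). The signals of *Chrng*, 4.39 to 5.21, lay under the negative control medians of 5.77 to 6.25. Those of *Myh8*, 19.88 to 19.93, lay at the ceiling, where a rise cannot show.

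Xin, filamin C, and Nrap are also proteins of the myotendinous junction, and markers of tendon and immune cells were set beside them. Of 6 tendon and junction markers 0 passed in limma (2 and 0 at an unadjusted p under 0.05 in Δ1w and Δ2w muscle), at a median of 0.61 in Δ1w and 0.09 in Δ2w muscle. *Col22a1*, the collagen of the junction, was at −0.10 in Δ1w muscle, *Scx* at 0.79 (adjusted p = 0.249), *Thbs4* at 0.65 (adjusted p = 0.281), and *Fmod* at 0.81 (adjusted p = 0.447). The signals of *Col22a1*, 6.15 to 6.53, lay near the negative control medians of 5.77 to 6.25, so its value says little about the junction. The mean of the 6 ran from 9.23 to 9.56 in control, 9.35 to 10.30 in Δ1w, and 9.08 to 9.60 in Δ2w muscle. Of 5 measured immune markers 0 passed (3 and 1 at an unadjusted p under 0.05), at medians of 0.71 and 0.34, led by *Csf1r* (0.99, adjusted p = 0.0615), *Lyz2* (0.82, adjusted p = 0.0725), and *Itgam* (0.71, adjusted p = 0.192) in Δ1w muscle. Their mean was 8.05 to 8.22 in control, 8.51 to 9.18 in Δ1w, and 8.21 to 8.48 in Δ2w muscle, so that Δ1w stood above control without overlap. On Δ1w replicate 1, the array with the smallest rise of *Xirp1*, *Flnc*, and *Ankrd1* in its group, the slow fiber, tendon, and immune means were each the lowest of the 3 Δ1w arrays (12.46, 9.35, and 8.51). On Δ1w replicate 5 these means were each the highest of the 3 (13.45, 10.30, and 9.18). *Ankrd1* was highest there too, but *Xirp1* and *Flnc* were highest on replicate 8. *Csrp3* and *Ankrd2* were lowest of the 3 on replicate 5. Smooth muscle markers had 0 calls among 6, and 0 at an unadjusted p under 0.05, in both models. The part of these cells in the Δ1w values was not tested.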

How the data were processed

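Gene expression was measured in TA muscle of 9 mice, 1 array per mouse. The authors made the deposited log2 signals by sst-rma, which corrects background, normalizes across arrays, and summarises probes, in Affymetrix Expression Console per the submitters' processing notes, while the methods name the Transcriptome Analysis Console. Signals are therefore relative to each array's RNA and not to a fiber or nucleus, and signals near the ceiling can understate a change. Of 28846 rows, 6640 control probes were left out, and 22206 gene rows were tested, of which 19572 have 1 symbol.

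The 3 groups were fitted together with limma 3.58.1 in R 4.3.3 (lmFit and eBayes, 6 residual degrees of freedom), with Benjamini-Hochberg adjustment over all gene rows. A gene was called where this p was under 0.05, and all adjusted p-values, standard errors, and 95% intervals are limma's. With 3 mice per group, an exact permutation test of 1 gene cannot go below 0.1. On simulated data with the spread of these arrays, the fit recovered 48.4% of log2 changes of 1 and 92.8% of log2 changes of 2 for Δ1w against control. Real changes of about 1 or less can therefore go uncalled. The 10 genes and all lists were chosen with earlier results of these data known. Named genes are the 10, in each list the 3 of lowest p for Δ1w against control (skeletal, cardiac, and smooth muscle markers are given by counts or means only), and the 3 rows most like *Xirp1*, *Flnc*, *Mustn1*, and *Ankrd1*. *Col22a1*, *Myh8*, and *Ankrd23* were added after their values were seen. Alternatives left out each mouse or changed the normalization, filter, variance model, weights, covariates, or test. Figures were drawn with matplotlib 3.10.9. Array scans were not used here.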

Additional observations from a re-analysis of the deposited data

How the results depend on the processing

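Of 21 alternatives in each comparison with control, 13 can move a log2 change, and in these all 10 genes stayed higher than control in both models. The other 8 change the test, the filter, or the row for a symbol, or leave out mice of the third group, and cannot. In Δ1w muscle *Xirp1*, *Mustn1*, and *Myoz2* were called in 19 alternatives and *Flnc* in 18, with log2 changes of 1.93 to 2.98, 1.09 to 1.37, 0.98 to 1.45, and 1.05 to 1.71. The 4 calls became 3 to 5 on leaving out a mouse, 5 with a mean signal of at least 6 or Y-linked genes as a covariate (*Ankrd1* added), 7 at a 2-fold change with an unadjusted p, 7 by the methods' t-test unadjusted and 0 after Benjamini-Hochberg, and 0 when Δ1w was replicate 1 alone (chosen after seeing the data), where the lone mouse is assumed to vary like the others. In Δ2w muscle the 1 call, *Mustn1*, became 0 to 1 on leaving out a mouse. It became 0 with quantile normalization again, only the 2 groups, or the LacZ allele or Y-linked genes as a covariate. It was also 0 by the t-test after Benjamini-Hochberg and with only mice of the shared name prefix. There were 2 calls with a trended and robust variance (with *Myoz2*), 3 at a 2-fold change, and 5 by the unadjusted t-test. For Δ1w against Δ2w the 0 calls became 0 to 1 on leaving out a mouse (*Xirp1* without Δ1w replicate 1). They became 2 at a 2-fold change (*Xirp1* and *Ankrd1*) and by the unadjusted t-test (*Xirp1* and *Flnc*). For the 2-fold rule and the unadjusted t-test, no share of all rows is given in Δ2w muscle or in Δ1w against Δ2w. Those counts are descriptions only.

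In that comparison 9 values of genes with no call changed sign. On leaving out a mouse, *Ankrd2* ran from −0.13 to 0.39 (0.09 with all mice), *Csrp3* from −0.0085 to 0.83, *Nrap* from −0.12 to 0.022, and *Mustn1* from −0.26 to 0.0038. *Ankrd2* was at −0.023 with the name prefix as a block, and *Ankrd2* and *Csrp3* at −0.59 and −0.52 with the LacZ allele as a covariate. The cause was not tested. Rows called over all genes were 312, 10, and 1, and 104 to 653, 0 to 21, and 0 to 58 on leaving out a mouse. No paired analysis was made because the labels name no pairs of mice. The name prefix was used as a random block instead.

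The shared name prefix and the group cannot be told apart for Δ1w mice, which share theirs with no control and no Δ2w mouse. The highest signals, such as *Ldb3*, lie near the ceiling of the arrays.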
